A study of Brassica rapa subsp. pekinensis with 6 samples.

Results

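The genes described here are 3 polygalacturonase (PG) genes of Chinese cabbage, *Bra001268*, *Bra001269* and *Bra025631*. They are 3 of the 35616 genes with a read in any of the 6 RNA-Seq libraries of flower buds. They were chosen because the study names them as PG genes among the differentially expressed genes (DEGs) of the *fsm* vs. ‘FT’ comparison. The change between the lines therefore selected them, and it is given below as a description without a test. The files carry only the Bra identifiers, so gene names were taken from the study's text and its list of DEGs.

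The study asked which genes differ between flower buds of *fsm*, a female-sterile mutant whose pistils abort, and buds of the wild-type line ‘FT’. The study also reports that the floral organs of *fsm* were relatively smaller. Its stamens held little pollen, but the pollen was viable and the study calls stamen fertility normal. The mutant line *fsm* was derived from ‘FT’ by ethyl methanesulfonate treatment of isolated microspores, and ‘FT’ is a doubled haploid line. Both lines were sampled as developing buds at full bloom, with 3 libraries each, and a replicate held the buds of 3 inflorescences from each of 5 plants. The methods state both that RNA of the replicates was pooled before library construction and that 6 libraries were made, so the p-values in this dataset measure the spread between libraries, which may be technical. The buds of both lines were collected in the same month. No batch or date of library preparation or sequencing is given, so an effect of preparation and the line cannot be told apart.

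Polygalacturonases are cell wall enzymes that cut the homogalacturonan backbone of pectin. They act best on pectin from which pectinesterases have removed the methyl groups, and both enzymes have protein inhibitors. In plants, PGs are known for loosening walls in ripening fruit, in abscission and pod opening, and in anthers, where pollen grains and growing pollen tubes carry PGs of their own. Of the 3 genes, *Bra001268* matches a PG of *Brassica rapa* and *Bra001269* a PG of *Brassica napus* in the study's descriptions, and *Bra025631* is described as a PG-like protein.

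The libraries held 28118248 to 29366538 reads in *fsm* and 24990396 to 25402146 reads in ‘FT’, with reads in 32640 to 32675 genes of *fsm* and 32837 to 32853 genes of ‘FT’. Levels are given as RPKM, which divides the reads of a gene by its length in kilobases and by the library total. The reads carry no molecular identifiers, so intervals below cover counting error only. Over all genes the median log2 fold change, *fsm* over ‘FT’, was −0.02. The scaling between libraries (TMM) by itself tends to centre the changes near 0, so this value does not show whether total RNA differed.

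All 3 PG genes were lower in *fsm* than in ‘FT’, and no library of *fsm* reached the lowest of ‘FT’. The libraries of the lines were also separate for a gene examined here with a log2 fold change of only −0.35. Such separation is thus not particular to PG genes, and its share over all genes was not counted. The more abundant genes, *Bra001269* and *Bra001268*, stood 17.5-fold and 17.2-fold higher in ‘FT’, and *Bra025631* was close to absent from the *fsm* libraries. The study's DEGs needed a log2 fold change of 4 or more in either direction, with 0.001 as the upper limit of the adjusted p. By edgeR's quasi-likelihood fit, 3 of 3 PG genes lay beyond that threshold in the lower direction, beside 2.34% of all genes. Since this contrast chose the genes, nothing is read from this count.

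*Bra001269* was the most abundant PG gene in both lines. It had 46.0, 45.8 and 49.5 RPKM in *fsm*, against 808, 849 and 814 RPKM in ‘FT’. The *fsm* libraries lay close together and far below every ‘FT’ library. The means were 47.1 ± 2.08 RPKM in *fsm* and 823 ± 22.3 RPKM in ‘FT’ (SD, n = 3 each), a 17.5-fold higher level in ‘FT’. The log2 fold change, *fsm* over ‘FT’, was −4.06 (SE 0.06). By mean RPKM the gene ranked 4593 among the genes of *fsm* and 60 among those of ‘FT’, so it was among the most abundant transcripts of wild-type buds.

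*Bra001268* had the second highest level of the 3 genes. It reached 18.7, 19.8 and 23.5 RPKM in *fsm*, against 345, 362 and 358 RPKM in ‘FT’. The third *fsm* library was the highest of its line, and all 3 stood far below ‘FT’. The means were 20.7 ± 2.50 RPKM in *fsm* and 355 ± 8.85 RPKM in ‘FT’ (SD, n = 3 each), 17.2-fold higher in ‘FT’. The log2 fold change was −4.03 (SE 0.07), just past the study's limit. Without *fsm* replicate 1 it was −3.98, so the gene then missed the limit of 4. Its rank by mean RPKM was 9792 in *fsm* and 284 in ‘FT’.

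*Bra025631* was a low transcript in both lines. It had 1, 1 and 2 reads in *fsm*, against 73, 72 and 99 reads in ‘FT’. Per length and depth this was 0.0268, 0.0276 and 0.0561 RPKM in *fsm*, against 2.26, 2.26 and 3.12 RPKM in ‘FT’. Each *fsm* library thus held a trace, and the lowest ‘FT’ library was still far above the highest of *fsm*. Summed over the libraries, 4 reads in *fsm* stood against 244 reads in ‘FT’, and at equal depth the gene was 69.5-fold higher in ‘FT’ (exact 95% counting interval 26.8 to 257). The fitted log2 fold change was −5.92 (SE 0.43). It depended on how low values were handled, with −4.73 at a prior count of 2 and −1.77 on the log2(RPKM + 1) scale.

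**Figure D1:**
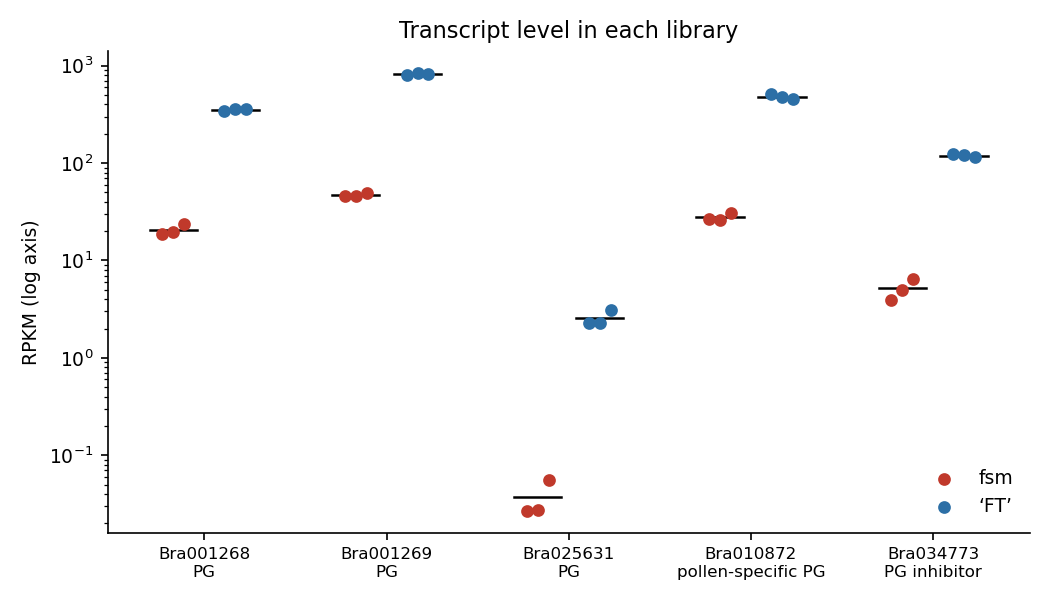
RPKM on a log axis in each library of *fsm* (red, left of each pair) and ‘FT’ (blue, right) for the 3 PG genes, the pollen-specific PG gene *Bra010872* and the PG inhibitor gene *Bra034773*. Points are libraries in the order of their replicate numbers and bars are means of 3 libraries. For all 5 genes every *fsm* library lies below every ‘FT’ library, and the share of all genes separated in this way was not counted.

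The order of the levels was the same in all 6 libraries. *Bra001269* was above *Bra001268*, and *Bra001268* was far above *Bra025631*. The level of *Bra001269* relative to *Bra001268* was 2.45, 2.31 and 2.11 in *fsm*, against 2.34, 2.35 and 2.27 in ‘FT’. These ratios overlapped between the lines, with means of 2.29 ± 0.17 in *fsm* and 2.32 ± 0.04 in ‘FT’ (SD, n = 3 each). *Bra001268* relative to *Bra025631* gave ratios of 419 to 716 in *fsm* and 115 to 160 in ‘FT’, but the *fsm* ratios rest on 1 or 2 reads of *Bra025631*.

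The spread among libraries was read against counting error, which is larger at the lower counts of *fsm*. The coefficient of variation of *Bra001268* was 12.1% in *fsm* and 2.49% in ‘FT’, where counting error alone gives 3.77% in *fsm* and 0.971% in ‘FT’. For *Bra001269* it was 4.42% in *fsm* and 2.71% in ‘FT’, where counting error gives 2.49% in *fsm* and 0.636% in ‘FT’. For *Bra025631* it was 45.2% in *fsm*, below the 86.6% of counting error, and 19.4% in ‘FT’, against 11.1% of counting error. The third *fsm* library had the highest RPKM of its line for all 3 PG genes. That library was also the highest of *fsm* in the summed RPKM of 11 genes described as pollen genes, with 71.7, 72.5 and 78.8 in *fsm*, against 1929, 1993 and 2092 in ‘FT’. This was not particular to pollen genes. The sums in *fsm* were 153, 159 and 170 for the pectinesterases listed below and 17.7, 16.2 and 19.8 for their inhibitors. They were 27.5, 27.0 and 38.2 for arabinogalactan proteins, but 41.1, 40.5 and 40.6 for expansins, where the third library was not the highest. The lists of pollen genes by GO term were in the other order, since the third library was the lowest of *fsm* in both. The summed RPKM of 22 pollen wall genes was 1932, 1818 and 1794 in *fsm*, against 6982, 7103 and 6878 in ‘FT’. That of 6 other pollen genes was 600.1, 603 and 584 in *fsm*, against 906, 929 and 911 in ‘FT’. The part of pollen RNA in these differences was not tested.

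The 3 genes together took 0.00772 to 0.00871% of the reads in *fsm* and 0.138 to 0.145% of the reads in ‘FT’. A library of *fsm* thus held one PG read in 11486 to 12954, against one in 691 to 726 in ‘FT’. In bulk buds, fewer cells of a type and less RNA per cell cannot be told apart.

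The deposited tables also give the percentage of each gene's length that reads cover. *Bra001268* was covered over 99.2 to 99.5% of its 1188 bases in *fsm* and 99.9% in ‘FT’, and *Bra001269* over 99.5 to 99.9% of its 1194 bases in *fsm* and 99.9% in ‘FT’. The remaining *fsm* reads of both genes thus reached nearly the whole gene, as in other genes with as many reads, and how evenly they lay along it was not tested. *Bra025631*, of 1269 bases, was covered over 9.85% in each *fsm* library, against 94.1, 90.5 and 91.8% in ‘FT’. In ‘FT’ its coverage was like that of genes of similar length and read number, whose medians were 94.6, 94.9 and 96.6%.

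The value of 9.85% equals 125 bases, the stretch that one read covered in nearly every gene with a single read. The third *fsm* library has 2 reads of *Bra025631* but the same 125 covered bases. Genes of similar length with 2 reads in that library had a median coverage of 18.2%, and 2.03% of 295 such genes had a lower coverage than *Bra025631*. In that library, 4.27% of all genes with 2 reads were covered no more widely than by 1 read. Whether those 2 reads are copies of one fragment was not tested.

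**Figure D2:**
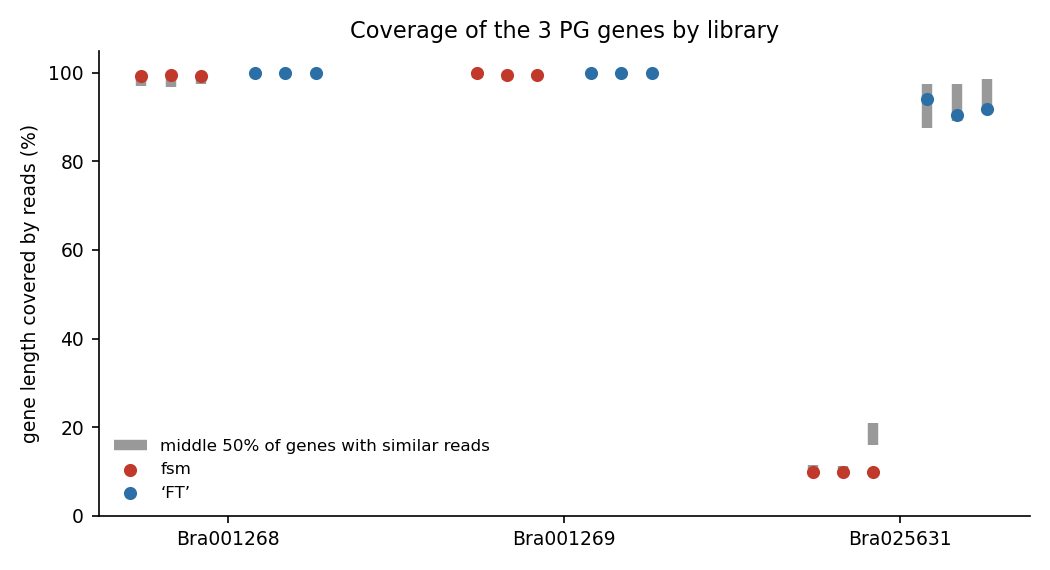
Percentage of gene length covered by reads for the 3 PG genes in each library of *fsm* (red, left) and ‘FT’ (blue, right). Grey bars span the middle 50% of genes with 0.8 to 1.25 times the reads and length of the PG gene in the same library. *Bra025631* is covered over 9.85% in each *fsm* library and over 90.5 to 94.1% in ‘FT’.

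A pair of further genes is described as PGs in the study's list of DEGs, which was chosen on these libraries. *Bra010872*, described as a pollen-specific PG of *Brassica rapa*, had 26.7, 26.1 and 30.9 RPKM in *fsm*, against 518, 473 and 450 RPKM in ‘FT’. It was 17.2-fold higher in ‘FT’, with a log2 fold change of −4.03 (SE 0.07) that lay between those of *Bra001269* and *Bra001268*. Without ‘FT’ replicate 1 it was −3.98 and without *fsm* replicate 2 it was −3.99, both short of 4. *Bra001269* relative to *Bra010872* was 1.69 ± 0.08 in *fsm* and 1.72 ± 0.14 in ‘FT’ (SD, n = 3 each), a ratio that again overlapped between the lines.

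*Bra037676*, described as a putative PG or pectinase, went the other way. It had 13, 13 and 17 reads in *fsm* and 0 reads in each ‘FT’ library. Set against a floor of 3 reads over the ‘FT’ libraries together, it was at least 12.6-fold higher in *fsm*. Its level was low even there, at 0.374, 0.385 and 0.510 RPKM in *fsm*. In the higher direction, 2.91% of all genes passed the same threshold. It no longer passed with a prior count of 2, where its log2 fold change was 2.98.

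*Bra034773* is described as a PG inhibitor protein, and whether it acts on the PGs of the plant itself was not tested. It had 110, 135 and 174 reads in *fsm*, against 2991, 2847 and 2718 reads in ‘FT’, or means of 5.16 ± 1.30 RPKM in *fsm* and 120 ± 4.74 RPKM in ‘FT’ (SD, n = 3 each). It was lower in every *fsm* library, with a log2 fold change of −4.47 (SE 0.10). The inhibitor gene and 4 of the 5 genes described as PGs passed the study's threshold as lower in *fsm*, beside 2.34% of all genes, and *Bra037676* passed as higher. All of them came from the study's DEGs of this comparison, so nothing is read from this count.

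The study's list of all genes gives Gene Ontology (GO) terms, which were at hand for its first 1116 genes, ordered by reads in ‘FT’ replicate 1. *Bra001268*, *Bra001269* and *Bra010872* carry there the same pair of terms, hydrolysis of O-glycosyl compounds and organization of external encapsulating structures. The pair was held by 11 genes in all, so 8 more share it. The list was drawn up after the values had been seen, and it rests on annotation among genes with many reads in ‘FT’ replicate 1. Genes entered it through the line in which they are abundant, which favours a lower level in *fsm*. The files name none of the 8, and they are not called PGs here.

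All 8 of these genes were lower in *fsm* by 1 or more on the log2 scale with the same limit on the adjusted p, a call reached by 18.0% of all genes in the lower direction and 18.7% in the higher. Their log2 fold changes ran from −4.16 to −2.40 with a median of −3.63. Over the 1116 genes from which they were drawn, 38.4% were lower and 5.65% higher by the same call, with a median of −0.67, so the genes drawn from were themselves more often lower than higher, and the count is given as a description. Only *Bra037509*, at −4.16 (SE 0.07), passed the study's limit of 4. Summed over the 8 genes, the level was 472 to 531 RPKM in *fsm* and 6137 to 6183 RPKM in ‘FT’.

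The most abundant of them, *Bra020716*, has 1194 bases, as many as *Bra001269*. It had 143, 139 and 159 RPKM in *fsm*, against 1717, 1690 and 1682 RPKM in ‘FT’, where it ranked 14 among all genes. It stood above *Bra001269* in both lines, and its log2 fold change of −3.46 (SE 0.06) left it short of the limit of 4. In ‘FT’, 3 of the 8 genes exceeded *Bra001269* in mean RPKM. *Bra010873* had 44.0, 44.3 and 55.1 RPKM in *fsm*, against 823, 766 and 735 RPKM in ‘FT’, with a log2 fold change of −3.95 (SE 0.07). Without *fsm* replicate 3 it was at −4.06 and passed. With all libraries it lay just outside the limit, where *Bra001268* at −4.03 and *Bra001269* at −4.06 lay just inside.

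**Figure D3:**
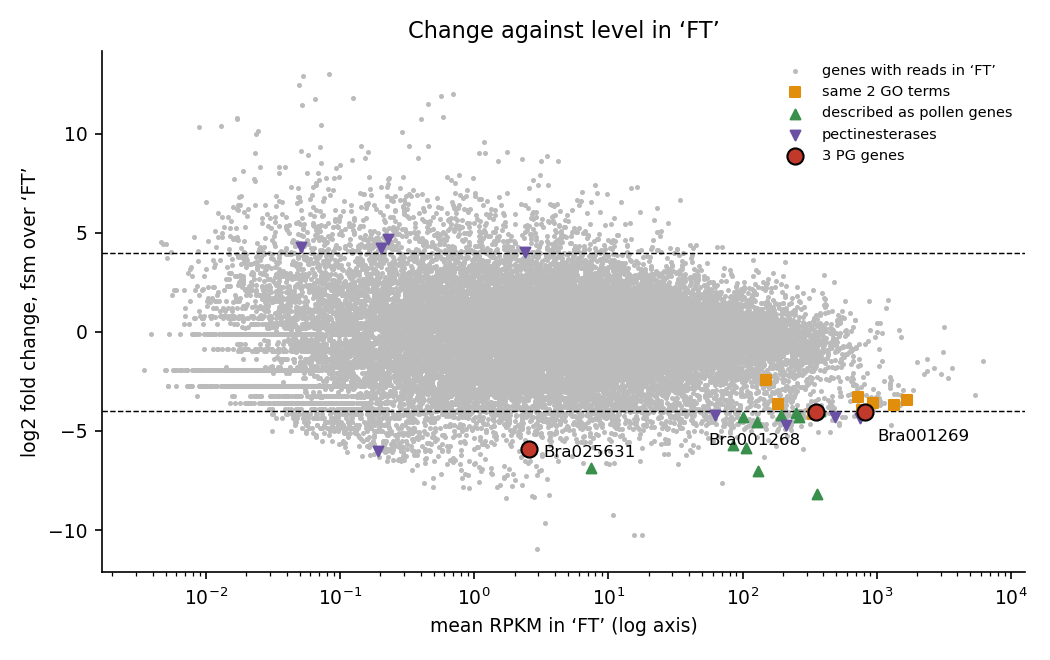
Log2 fold change, *fsm* over ‘FT’, against mean RPKM in ‘FT’ on a log axis for all genes with reads in ‘FT’ (grey). Red circles are the 3 PG genes, orange squares the 8 genes with the same pair of GO terms, green triangles the genes described as pollen genes and purple triangles the pectinesterases with reads in ‘FT’. Dashed lines mark the limit of 4, and *Bra001268* and *Bra001269* lie close to it at the right side of the plot while *Bra025631* lies at −5.92.

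Abundant genes of ‘FT’ were often lower in *fsm*. The genes compared here were chosen by their level in ‘FT’, which is one side of the fold change. That choice by itself can favour a lower level in *fsm*, and no set chosen by the level in *fsm* was compared. Among the 835 other genes within 2-fold of the ‘FT’ level of *Bra001268*, the median log2 fold change was −0.80 and 6.47% were as low as *Bra001268* or lower. Among the 199 within 2-fold of *Bra001269*, the median was −1.39 and 6.53% were as low as *Bra001269* or lower. The genes near *Bra025631* in level did not share that shift. Their median was 0.07 over 6125 genes, and 0.571% were as low as *Bra025631* or lower.

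The genes with the most similar profile were sought by Euclidean distance of log2(RPKM + 0.1) over the 6 libraries, which weighs level and change together. That the genes found resemble a PG gene in level and change is thus set by the search, and their values are given as a description. Nearest to *Bra001269* were *Bra000438* at a distance of 0.27, *Bra010873* at 0.27 and *Bra012756* at 0.28. *Bra000438* is described as *VANGUARD1* (*VGD1*), a pectinesterase known from growth of Arabidopsis pollen tubes in the style. It had 40.6, 42.0 and 46.9 RPKM in *fsm*, against 797, 775 and 802 RPKM in ‘FT’, and a log2 fold change of −4.12 (SE 0.06). *Bra012756* is described only as a predicted protein, with a log2 fold change of −4.09.

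Nearest to *Bra001268* were *Bra010850* at 0.35, *Bra001309* at 0.38 and *Bra039389* at 0.39. *Bra010850* is described as a member of the pollen Ole e 1 allergen and extensin family and changed by −4.01 on the log2 scale, and by −3.996 without ‘FT’ replicate 2, where it just missed the limit. *Bra001309* and *Bra039389* changed by −3.94 and −3.87. The profile of *Bra001269* itself was farther away, since 272 genes were nearer to *Bra001268*.

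Nearest to *Bra025631* were *Bra035116* at 0.68, *Bra021622* at 0.72 and *Bra011760* at 0.75. *Bra035116* is described as organic cation/carnitine transporter *OCT5*, with a log2 fold change of −6.77, and *Bra021622* as the cation antiporter *CHX13*, with −5.06. *Bra011760* is described as a hypothetical protein and changed by −6.15. As the search requires, all 3 were close to absent in *fsm* like *Bra025631*, with means of 0.0229 to 0.0698 RPKM in *fsm* and 2.52 to 3.22 RPKM in ‘FT’.

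The other pectin genes came from descriptions in the study's list of DEGs, so each had passed the study's threshold on these libraries and the counts are no independent evidence of direction. Pectinesterases, which prepare pectin for PGs, went both ways, with 6 of 11 lower and 5 of 11 higher in *fsm*. The 5 most abundant in ‘FT’ were all among the lower ones, but this ranking uses the ‘FT’ side of the fold change. Of the 1831 genes with at least 100 RPKM in ‘FT’, 99 passed the study's threshold as lower and 0 as higher. A gene abundant in ‘FT’ could thus hardly be among the higher ones, and nothing is read from this order. The summed level of the 11 genes was 153 to 170 RPKM in *fsm* and 2255 to 2395 RPKM in ‘FT’, and *Bra000438* had the highest mean in each line. The genes with the largest fitted changes were each seen in one line only. *Bra020131* had 8, 8 and 10 reads in *fsm* and none in ‘FT’, at least 7.61-fold higher in *fsm* against the floor of 3 reads. *Bra029170* had none in *fsm* and 9, 6 and 8 reads in ‘FT’, at least 8.74-fold higher in ‘FT’. Both rest on few reads. Leaving out a library ended the call of *Bra020131* in 5 of 6 cases and that of *Bra029170* in 6 of 6.

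Of the pectin methylesterase inhibitor genes (PMEIs), which block pectinesterases, 8 of 8 were lower, with a median log2 fold change of −4.72. These too came from the list of DEGs, so a change beyond 4 was set by the choice. Over all genes, 2.34% passed the threshold as lower and 2.91% as higher. *Bra019903* was the most abundant PMEI gene, with 8.99 ± 1.61 RPKM in *fsm* and 158 ± 6.34 RPKM in ‘FT’ (SD, n = 3 each). *Bra022089* showed the largest decrease of the PMEI genes, at −5.97 (SE 0.18). The PMEI genes and the PG inhibitor gene were low in the same libraries as the PG and pectinesterase genes that were abundant in ‘FT’. All of these were DEGs chosen on these libraries, and 5 of 11 pectinesterases were higher in *fsm*, so nothing is read from the shared direction. Without *fsm* replicate 2, *Bra019903* was at −3.92 and missed the limit of 4.

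Of other pectin genes, *Bra002014*, a putative esterase that removes acetyl groups from pectin, had 11.7 ± 0.637 RPKM in *fsm* and 212 ± 1.23 RPKM in ‘FT’ (SD, n = 3 each). *Bra012890*, described as *GATL2*, a galacturonosyltransferase-like protein of pectin synthesis, was the reverse, with 20.0 ± 2.23 RPKM in *fsm* and 1.26 ± 0.244 RPKM in ‘FT’. It missed the limit of 4 without ‘FT’ replicate 2 (3.94) and without *fsm* replicate 1 (3.96). Expansins, proteins that loosen walls without cutting them, were higher in *fsm* in 4 of 4 cases, beside 2.91% of all genes. They too were DEGs of this comparison. The most abundant, *Bra007864*, had 32.1, 31.0 and 34.4 RPKM in *fsm*, against 1.68, 2.29 and 2.03 RPKM in ‘FT’. Without ‘FT’ replicate 1 its log2 fold change was 3.98, short of 4. *Bra007170* showed the largest increase of the expansins, at 4.69 (SE 0.43). Its mean was 3.05 ± 0.522 RPKM in *fsm* and 0.118 ± 0.105 RPKM in ‘FT’. Wall-modifying genes among the DEGs thus stood on both sides of the comparison.

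**Figure D4:**
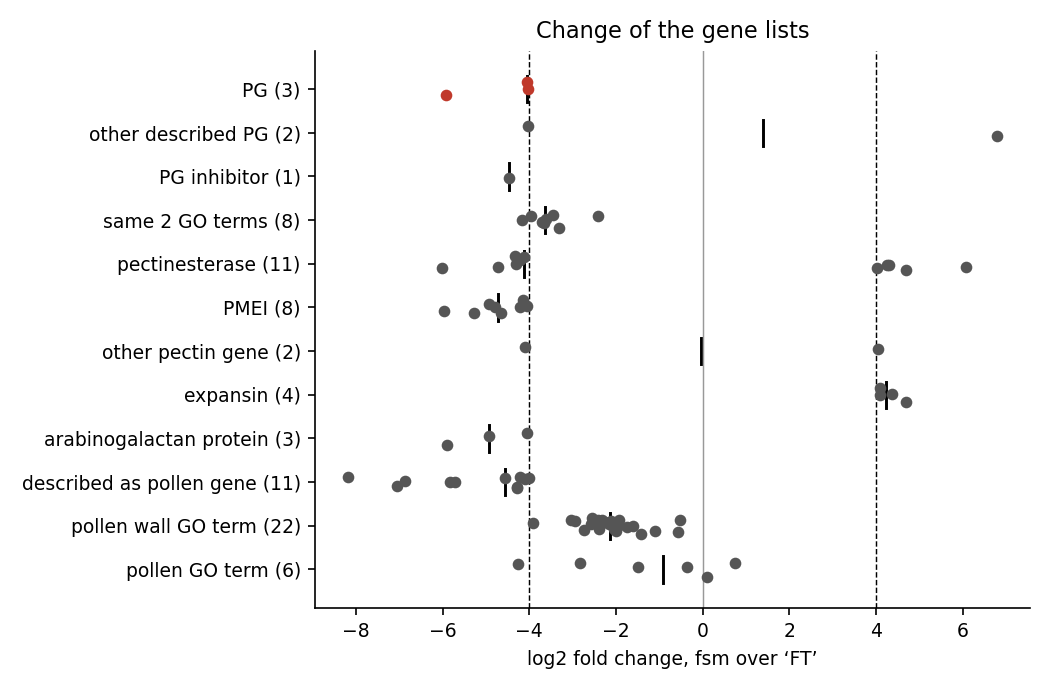
Log2 fold change, *fsm* over ‘FT’, of every gene of each list, with the number of genes in parentheses; points are genes, black bars are medians and dashed lines mark the limit of 4. The 3 PG genes are in red. All lists from the study's DEGs lie beyond the limit by construction, and the lists by GO term were drawn from genes with many reads in ‘FT’ replicate 1, of which 38.4% were lower by 1 or more.

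Pollen genes were followed beside the PG genes, since PGs are known from pollen. The 11 genes described as pollen genes were chosen by the study on these libraries, and 11 of 11 were lower, with a median log2 fold change of −4.57. Of them, 1 was at 0 reads in some *fsm* libraries. This was *Bra028695*, described as a pollen coat oleosin and glycine-rich protein after a match in *Sisymbrium irio*, with 1, 0 and 0 reads in *fsm*, against 62, 55 and 32 reads in ‘FT’, and it is named for these values. The most abundant in both lines was *Bra010850*, with 22.5 ± 0.320 RPKM in *fsm* and 380 ± 8.17 RPKM in ‘FT’ (SD, n = 3 each). The largest decrease of the list was that of *Bra023621*, a pollen calcium-binding protein (polcalcin), which had 6, 8 and 10 reads in *fsm*, against 2116, 2094 and 2338 reads in ‘FT’.

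Of 22 abundant genes with a GO term for the pollen wall, 20 were lower at the limit of 1 in edgeR's fit, a call reached by 18.0% of all genes and by 38.4% of the 1116 genes from which the list was drawn. Their log2 fold changes ran from −3.90 to −0.51 with a median of −2.14, so none reached the limit of 4 or the value of a PG gene. Of 6 abundant genes with another GO term for pollen, drawn in the same way, 1 was lower at the limit of 4 and 3 at the limit of 1, with a median of −0.92. Arabinogalactan protein genes, which encode glycoproteins of the cell surface, were lower in 3 of 3 cases, but these too were named by the study as DEGs. Of them *Bra016902* was the most abundant, with 19.3 ± 5.11 RPKM in *fsm* and 337 ± 12.4 RPKM in ‘FT’, and *Bra003296* had the largest decrease, at −5.89. Without *fsm* replicate 2, *Bra016902* was at −3.92, short of the limit.

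Primers are shown because they are the only sequences of the PG genes among the sources used here, and because one pair recurs. The study's primer list for quantitative PCR covers 18 genes, with *Bra001268* and *Bra001269* among them and not *Bra025631*. The pair given for *Bra001268* is printed in capitals because all of its bases are identical to the pair given for *Bra012128*, described as *HECATE1* (*HEC1*), a transcription factor gene of carpel development in Arabidopsis. The pair for *Bra001269*, in lower case, is listed for no other gene. The study's text names *Bra001268* and *Bra012128* among the genes measured by quantitative PCR, and not *Bra001269* or *Bra025631*. It reports trends similar to its RNA-Seq values for the genes measured.
Bra001268 forward: TGGAATCAGTGTCGGAAGC
Bra001268 reverse: CGGAGGCGGTGGTGG
Bra001269 forward: agttagcaacccaatcctcatc
Bra001269 reverse: cacaatagtttcactgcgtcct

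The 2 genes with the shared pair moved in opposite directions in the libraries. *Bra012128* had 57, 43 and 42 reads in *fsm*, against 2, 0 and 0 reads in ‘FT’, a fitted log2 fold change of 5.80, where *Bra001268* fell by 4.03 on the log2 scale. The fitted value of *Bra012128* rests on 2 reads in ‘FT’ replicate 1 and was 8.52 without that library. The reverse primer of the pair has 15 bases, of which 80% are G or C, while both primers of *Bra001269* have 22 bases. Which of the 2 transcripts the pair matches was not tested, since no transcript sequence was used here. Which of them the study's quantitative PCR of either gene measured was likewise not tested. It was the single pair listed for more than one gene.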

How the data were processed

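Flower buds of *fsm* and ‘FT’ were compared with 3 libraries per line, grouped by the sample labels. The authors aligned clean reads to the *Brassica rapa* genome with SOAP2, allowing 5 mismatches, and deposited for each library the raw count of reads, the RPKM and the percentage of covered length of each gene. The deposited counts are described as uniquely matched reads. Yet in every library their total is above the number of reads that the study reports as mapped to the genome. The source of that difference was not tested, so what the counts include is unclear. If they are unique matches, reads that fit closely related PG genes equally could be missing, and how many was not tested. The per-gene coverage values as deposited slightly exceed 100% in a few genes. Genes not listed in a library were taken as 0 reads. No columns of the authors' own comparisons were used.

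The members and gene lists were chosen with earlier results of these data known. Counts were fitted in R 4.3.3 with edgeR 4.0.16 (TMM, quasi-likelihood test, no filter, no covariates, Benjamini-Hochberg over 35616 genes, all 6 libraries), and the code was tested on simulated data. The common biological coefficient of variation was 0.0644. Standard errors are the absolute log2 fold change over the root of F. DEGs had adjusted p-values up to 0.001 and log2 fold changes of 4 or more in size. Depth was 24990396 to 29366538 reads per library. Intervals and the floor of 3 reads cover counting error only.

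Named genes were the 3 PG genes, the other described PGs and the PG inhibitor, the most abundant gene in each line and the largest increase and decrease of each other list of described genes, and the 3 nearest profiles of each member. The 8 genes with shared GO terms, *Bra012128* and *Bra028695* were added after their values were seen. Lists came from descriptions, names and GO terms in the study's tables, of which the list of all genes was at hand for the 1116 genes with most reads in ‘FT’ replicate 1 only. Alternatives were DESeq2 1.42.0 size factors and test, total counts, edgeR's filter, a prior count of 2, log2(RPKM + 1) or log2(RPKM + 0.1) in limma 3.58.1, a replicate block and leaving out each library. The numbers 1 and 2 occur in both lines, but no source pairs them.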

Additional observations from a re-analysis of the deposited data

How the results depend on the processing

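None of the 3 PG genes and the 31 other named genes changed direction under any alternative run. The count of DEGs was 1873, and it was 1156 with a prior count of 2, 497 with limma on log2(RPKM + 1), 1157 with limma on log2(RPKM + 0.1), 13069 with a limit of 1 and 1708 to 1818 with a library left out. All 3 PG genes passed the threshold except that 2 passed with limma on log2(RPKM + 1), where *Bra025631* was lost, and 2 without *fsm* replicate 1, where *Bra001268* was lost. Of the 5 genes described as PGs, 3 passed with limma on log2(RPKM + 1), where *Bra025631* and *Bra037676* were lost, 4 with limma on log2(RPKM + 0.1) or a prior count of 2, where *Bra037676* was lost, and 4 to 5 with a library left out, where *Bra001268* or *Bra010872* was lost. Of the 8 genes with shared GO terms, 1 passed, against 2 with total counts, 2 with limma on log2(RPKM + 0.1), 2 with the replicate block, 1 to 2 with a library left out and 8 with a limit of 1. The 8 genes were examined after the data were seen. The causes were not tested.

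With a library left out, the log2 fold change ranged from −4.13 to −3.98 for *Bra001268*, from −4.09 to −4.04 for *Bra001269* and from −6.30 to −5.74 for *Bra025631*. Over the 31 other named genes, 381 of 432 values kept their side of the threshold, 45 fell short of it and 6 newly passed. The replicate block, which uses the 4 libraries numbered 1 and 2, gave 1750 DEGs, 3 PG genes and 5 genes described as PGs. Same-numbered libraries did not deviate together, with correlations of −0.0504 and 0.0657 over 25839 genes. For *Bra025631*, depth sets the limit, since its *fsm* level rests on 4 reads.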
